A study of Mus musculus with 5 samples.

Results

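The genes of the axon guidance ligands and receptors were followed in neural tubes of EpoR-null mouse embryos and their littermate controls. The members were the gene symbols of the 4 classical guidance systems (ephrins and Eph receptors, semaphorins with plexins and neuropilins, Slits and Robo receptors, and netrins with Dcc and Unc5 receptors), and 69 of the 23284 symbols in the count tables matched, 35 ligands and 34 receptors in 12 families. The neural tube is the embryonic epithelium from which brain and spinal cord form, and EpoR is the gene of the erythropoietin receptor. RNA-seq was done on 5 samples, all labelled as neural tubes of E8.5 embryos, although the methods of the study give a slightly later stage. They were 2 samples with both EpoR alleles deleted (EpoR -/-, EpoR-null), 2 wild type samples (EpoR +/+) and 1 sample labelled heterozygote (EpoR +/-), and the last 3 formed the littermate controls. The embryos came from crosses of EpoR +/- mice, so the deletion was present in every cell of the EpoR-null embryos, blood included, and the sources used here do not say whether a sample was 1 embryo or a pool. The tubes were freed by manual and enzymatic dissection.

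Guidance ligands are secreted or membrane-bound proteins that attract or repel growing axons and migrating cells through receptors on the cell surface. Slits from the midline repel axons that carry Robo receptors, netrin-1 from the floor plate attracts axons that carry Dcc, semaphorins act through plexins and, for most of class 3, through neuropilins, and ephrins signal by contact to Eph receptors. In an early neural tube, before most axons have grown, several of these genes are also expressed in dividing neuroepithelial cells, and others in blood vessels, where Ephb4, Efnb2, Robo4, Unc5b and Plxnd1 are known for roles in vessel growth.

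Of the 69 members, 66 passed the filter on low counts (over 1 CPM, read counts scaled to a common library size by TMM, in at least 2 samples), 34 ligands and 32 receptors. Values of the controls are given below in the order wild type replicate 1, wild type replicate 2 and library labelled heterozygote, and those of EpoR-null samples as replicate 1 and 2. The members that did not pass the filter were Epha6 (0 to 1 read per sample), Ntn5 (0 to 7 reads) and Plxnb3 (0 to 4 reads), and in these libraries 3 reads equal 0.0729 to 0.155 CPM before TMM scaling. Reads on genes ranged from 19316126 to 41169218 per sample. Epor, the deleted gene, had 57 and 68 reads in the wild type samples (2.35 and 1.62 CPM), 11 in the library labelled heterozygote (0.476 CPM) and 7 and 19 in the EpoR-null samples (0.354 and 0.669 CPM), so its level did not set the library labelled heterozygote apart from the EpoR-null ones. Markers of neural progenitors were abundant in every sample, with a summed level of 2041, 2029 and 2299 CPM in the controls and 2053 and 1723 CPM in the EpoR-null samples over 9 genes. By the exact test used below, 1 of the 9, Msi1, was called lower and 0 higher. Msi1 had means of 253 CPM in the controls and 177 CPM in the EpoR-null samples (log2 fold change -0.51, FDR 0.00712). With the length and GC offsets used below its log2 fold change was -0.67 (FDR 0.00392). Some libraries stood apart in their content of other cell types.

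The first was the library labelled heterozygote, which was low in markers of vessels and blood. The summed level of 8 endothelial markers (Cdh5, Pecam1 and Kdr among them) was 13.1 CPM there, against 197 and 318 CPM in wild type, 279 CPM in EpoR-null replicate 1 and 159.7 CPM in replicate 2, and 8 of 8 were lowest in it. The 6 markers of primitive red cells summed to 44.9 CPM there and to 1118 and 618 CPM in wild type, and were likewise lowest in it for 6 of 6 genes. Paraxial mesoderm markers (9.73 CPM there, 55.2 and 51.3 CPM in wild type) and neural crest markers (35.2 against 134 and 125 CPM) were low in it as well. The second difference lay between the EpoR-null samples. Markers of newborn neurons (Tubb3, Dcx, Stmn2 and 9 others) summed to 1552 CPM in EpoR-null replicate 1 and 314 CPM in replicate 2, on either side of the controls (601, 436 and 722 CPM), with replicate 1 the highest sample for 11 and replicate 2 the lowest for 11 of the 12 genes. Red cell markers (1715.5 and 975 CPM) and paraxial mesoderm markers (109 and 38.4 CPM) were also higher in replicate 1 than in replicate 2, as the endothelial ones were. Surface ectoderm markers were lower in replicate 1 (15.0 and 30.3 CPM). In RNA from whole tissue, fewer cells of a type and less RNA per cell cannot be told apart.

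The comparison of EpoR-null with control neural tubes asks which genes depend on EPO signaling in the tissue. By the exact test of edgeR with the thresholds of the study (p < 0.001 and FDR < 0.05), Slit1, Plxna1 and Plxna2 fell and no member rose. That is 3 of 66 members tested lower (4.55%) and 0 higher, where 3.84% of all 12703 genes tested were called lower and 0.929% higher, so the share of members that fell was close to that of genes in general. Robo2 passed FDR alone (4 of 66 members lower and 0 higher at FDR < 0.05, against 5.49% and 1.81% of all genes). The median log2 fold change of the members was -0.10 (ligands -0.02, receptors -0.17), that of all genes tested 0.06, and 38 of 66 members (57.6%) lay below 0, against 43.8% of all genes. In 16 members (24.2%, against 22.1% of all genes) neither EpoR-null sample reached the lowest control. In 3 members (4.55%, against 21.2% of all genes), Efna3, Efna4 and Ntn3, neither came down to the highest control.

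Other tests drew the line elsewhere. With the quasi-likelihood dispersions of edgeR, 0 of 66 members and 0 genes (0%) passed in either direction (lowest FDR 0.059), and p was under 0.05 for 11 members and 3052 genes. DESeq2 called 4 members lower (6.06%, all genes 5.93%), Slit1, Plxna1, Plxna2 and Robo2, and 0 higher (all genes 2.16%).

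**Figure D1:**
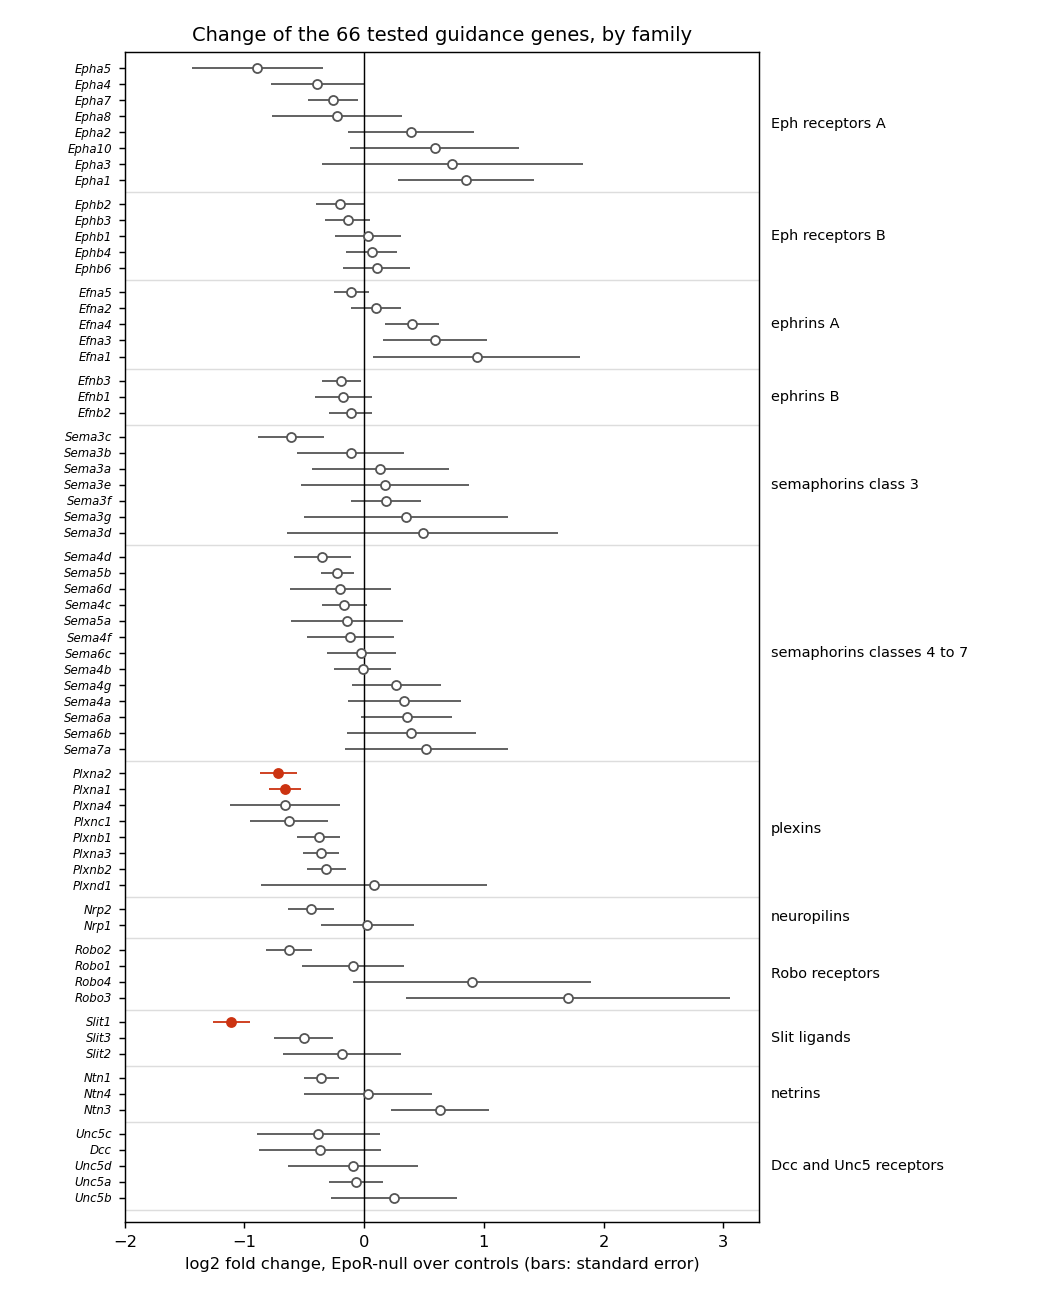
Log2 fold change of EpoR-null over control samples (horizontal axis) for each of the 66 tested members, grouped by family, with bars for the standard error. Filled red points are the 3 genes past both thresholds of the exact test (Slit1, Plxna1 and Plxna2), all to the left of 0, and the widest bars belong to Robo3, Sema3d and Epha3.

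Promoters of 4 members around which the values below turn are printed first. Each is the 250 bases before a RefSeq start site (GRCm38.p6, read on the strand of the gene), and capitals mark the GC box GGGCGG on either strand, the motif that Sp1 binds. Plxna2 is shown as a member that fell, Robo2 as the one past FDR alone (of its 3 RefSeq starts the one where the GENCODE gene begins), Robo3 as the member most unequal between the EpoR-null samples, and Plxnd1 as an abundant member that was low in the library labelled heterozygote.
Plxna2, chr1:194619579-194619828, plus strand: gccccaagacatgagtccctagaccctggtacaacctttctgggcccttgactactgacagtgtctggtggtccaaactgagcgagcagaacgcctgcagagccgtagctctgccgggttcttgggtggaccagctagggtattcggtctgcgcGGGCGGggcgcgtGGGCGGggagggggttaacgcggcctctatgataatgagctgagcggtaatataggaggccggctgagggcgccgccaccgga
Robo2, chr16:74411826-74412075, minus strand: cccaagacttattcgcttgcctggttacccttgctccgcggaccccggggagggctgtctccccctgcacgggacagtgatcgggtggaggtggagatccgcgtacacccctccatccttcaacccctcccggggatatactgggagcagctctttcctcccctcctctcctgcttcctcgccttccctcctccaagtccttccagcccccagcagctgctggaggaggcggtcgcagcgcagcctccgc
Robo3, chr9:37433176-37433425, minus strand: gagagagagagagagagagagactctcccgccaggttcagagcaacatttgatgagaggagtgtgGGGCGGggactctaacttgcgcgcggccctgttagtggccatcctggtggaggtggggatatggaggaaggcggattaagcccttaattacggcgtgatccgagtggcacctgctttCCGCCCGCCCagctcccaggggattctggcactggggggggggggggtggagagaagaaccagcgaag
Plxnd1, chr6:115995006-115995255, minus strand: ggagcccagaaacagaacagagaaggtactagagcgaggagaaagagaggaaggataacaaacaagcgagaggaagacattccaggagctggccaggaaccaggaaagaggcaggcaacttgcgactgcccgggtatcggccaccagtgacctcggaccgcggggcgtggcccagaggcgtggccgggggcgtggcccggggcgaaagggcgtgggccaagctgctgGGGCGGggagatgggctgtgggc

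Adjoining matches share letters in Robo3, and the Robo2 stretch holds none. The RefSeq table of promoters held 75 starts for 59 of the 69 members and no entry for Slit1 or Plxna1. The GC box stood in 53 of the 75 (70.7%), against 32.7% of all 32851 promoters of the same length, and the median GC content of the member promoters was 64.4% against 52.4%. Letters of 3 other motifs were searched on both strands. The STAT motif TTCNNNGAA was in 2 of the 75 (2.67%, all promoters 7.02%), and neither the NRF1 motif (3.74% of all promoters) nor TTCAGCACC, part of the REST element (0.301%), was in any. A match here is a run of letters and not a shown site.

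Slit1 had the largest change that passed the test. This gene (chromosome 19, 41600257 to 41743665, minus strand of GRCm38) encodes a secreted repellent of the neural tube, and its level was 104, 102 and 116 CPM in the controls and 45.5 and 54.0 CPM in the EpoR-null samples. The EpoR-null samples lay close to each other and below every control. The part of neuron content in this value was not tested. The group means were 107 ± 7.39 CPM for the controls (SD, n = 3) against 49.7 ± 5.99 CPM with the receptor deleted (SD, n = 2), the log2 fold change was -1.11 with a standard error of 0.15, and the EpoR-null level was 46.4% of the control level (exact test of edgeR, FDR 1.90e-09). With any 1 sample left out the log2 fold change ran from -1.24 to -0.99 and the gene stayed past both thresholds (without 1 EpoR-null sample the spread comes from the controls alone, and the lone sample is assumed to vary like them). With offsets that remove each sample's trend on transcript length and GC content, it was -0.94 (likelihood-ratio test of edgeR, FDR 0.00275), the only member called in that fit (1.52%, against 1.13% lower and 0.239% higher of all genes).

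The other Slits did not pass. Slit2, a Slit of the floor plate, was at 78.8, 61.7 and 81.9 CPM in the controls and 100.1 and 30.2 CPM in the EpoR-null samples. EpoR-null replicate 1 was above and replicate 2 below every control, so the groups overlapped (log2 fold change -0.19 with a standard error of 0.49, FDR 0.893). Slit3 was at 36.6, 36.8 and 42.0 CPM in the controls and 33.1 and 21.2 CPM in the EpoR-null samples, both EpoR-null samples under the controls (log2 fold change -0.51 with a standard error of 0.25, FDR 0.244). Summed over the family, Slit reads came to 219.6, 201 and 239.8 CPM in the controls against 179 and 105 CPM in the EpoR-null samples, a ratio of 0.645 to the control mean. It was 0.812 in replicate 1 and 0.479 in replicate 2, where the plexins had 0.769 and 0.716.

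Among the Robo receptors, Robo2, a Slit receptor of growing axons, was at 32.5, 32.3 and 34.3 CPM in the controls and 19.3 and 23.3 CPM in the EpoR-null samples. Both EpoR-null samples were under all controls, at a log2 fold change of -0.63 with a standard error of 0.19, but its p of 0.00124 missed the threshold while its FDR of 0.0239 met it. With the length and GC offsets its log2 fold change was -0.06 (FDR 0.999). Robo1 was at 46.5, 40.5 and 38.5 CPM in the controls and 57.5 and 20.9 CPM in the EpoR-null samples, one EpoR-null sample above and the other below all controls (log2 fold change -0.09 with a standard error of 0.43). Robo3, which keeps commissural axons from responding to Slit before they cross the midline, had the largest ratio between the EpoR-null samples of all members, with 6.03, 2.05 and 7.26 CPM in the controls and 32.8 and 0.458 CPM in the EpoR-null samples. It had 649 reads in EpoR-null replicate 1 and 13 in replicate 2, a ratio of 71.6 in CPM, and its log2 fold change of 1.70 with a standard error of 1.35 did not pass (FDR 0.517). Robo4, the Robo of endothelial cells, was at 6.45, 8.5 and 0.519 CPM in the controls and 12.5 and 6.83 CPM in the EpoR-null samples, lowest in the library labelled heterozygote.

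**Figure D2:**
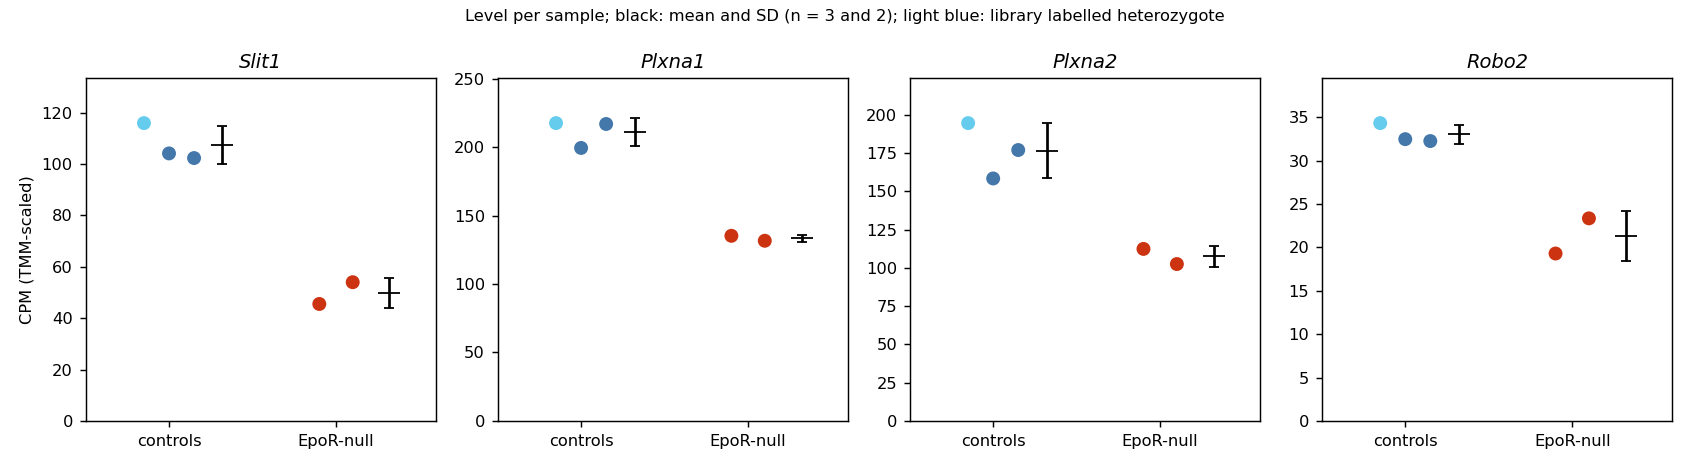
CPM per sample (vertical axis, from 0) of Slit1, Plxna1, Plxna2 and Robo2 in the 3 controls (blue, the library labelled heterozygote in light blue) and the 2 EpoR-null samples (red), with the mean and SD of each group in black. In all 4 genes both EpoR-null samples lie below every control, and Robo2 passed FDR alone.

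In the semaphorin system the genes that fell were receptors. Plxna1 (chromosome 6, 89316314 to 89362620, minus strand) and Plxna2 (chromosome 1, 194618218 to 194816869, plus strand) encode class A plexins, which transduce semaphorin signals to the cytoskeleton. Plxna1 was at 199, 217 and 218 CPM in the controls and 135 and 132 CPM in the EpoR-null samples. Its EpoR-null values differed little from each other and were well below the controls, with means of 211 ± 10.3 CPM for the controls (SD, n = 3) against 133 ± 2.56 CPM with the receptor deleted (SD, n = 2). Its log2 fold change was -0.66 with a standard error of 0.13 (exact test of edgeR, FDR 1.58e-04). Plxna2 was at 158, 177 and 195 CPM in the controls and 112 and 103 CPM in the EpoR-null samples. The groups again did not overlap, the means being 177 ± 18.1 CPM for the controls (SD, n = 3) against 107 ± 6.99 CPM with the receptor deleted (SD, n = 2). The log2 fold change of Plxna2 was -0.72 with a standard error of 0.16 (FDR 5.57e-04). EpoR-null levels were 63.1% and 60.8% of control. Both genes stayed past both thresholds with each sample left out (-0.70 to -0.64 for Plxna1, -0.79 to -0.64 for Plxna2), and neither did with the length and GC offsets (-0.23, FDR 0.978, and -0.13, FDR 0.999).

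The remaining plexins passed no threshold. Of 8 plexins tested, 7 had a log2 fold change below 0 and both EpoR-null samples below all controls. All 8 had transcripts of at least 5000 bases, a class in which 81.1% of all genes tested lay below 0 and 52.9% had both EpoR-null samples below all controls. With the length and GC offsets 6 of 8 plexins were below 0 and their median moved from -0.50 to -0.09. Plxnb2, the plexin with the most reads, was at 228, 251 and 226 CPM in the controls and 169 and 209 CPM in the EpoR-null samples (log2 fold change -0.31 with a standard error of 0.16, FDR 0.271). Plxnb1, like Plxnb2 a receptor of class 4 semaphorins, was at 200.1, 203 and 212 CPM in the controls and 181 and 134 CPM in the EpoR-null samples. Plxnc1, the receptor of Sema7a, was at 26.8, 31.3 and 27.0 CPM in the controls and 12.6 and 24.0 CPM in the EpoR-null samples, with replicate 1 the lower one. The log2 fold changes of Plxnb1 (-0.38), Plxna3 (-0.36), Plxnc1 (-0.63) and Plxna4 (-0.66) had FDR from 0.148 to 0.476. Plxnd1 was the exception, at 94.8, 164 and 10.6 CPM in the controls and 112 and 78.1 CPM in the EpoR-null samples. Its level in the library labelled heterozygote was the lowest of the 5, and the control mean of 89.8 CPM carried an SD of 76.8 CPM (n = 3). Plexin reads summed to 976, 1113 and 961 CPM in the controls against 782 and 727 CPM in the EpoR-null samples, a ratio of 0.742, and the 9 plexins had long transcripts (median 7302 bases).

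Neuropilins, the ligand-binding partners of class A plexins, were not called. Nrp2 was at 95.6, 84.0 and 75.6 CPM in the controls and 70.8 and 54.5 CPM in the EpoR-null samples, below all controls in both EpoR-null samples (log2 fold change -0.44 with a standard error of 0.19, FDR 0.159). Nrp1, also a receptor for vascular growth factor in endothelium, was at 47.3, 46.9 and 32.6 CPM in the controls and 59.5 and 26.7 CPM in the EpoR-null samples, the EpoR-null samples again on either side (log2 fold change 0.03 with a standard error of 0.39). Among the 7 secreted class 3 semaphorins log2 fold changes ran from -0.61 (Sema3c) to 0.49 (Sema3d). Sema3c, the one with the most control reads, was at 17.7, 19.7 and 21.4 CPM in the controls and 10.4 and 15.3 CPM in the EpoR-null samples (FDR 0.190). Sema3a, the classical repellent that collapses growth cones through Nrp1 and Plxna1, was at 20.4, 11.0 and 18.1 CPM in the controls and 8.18 and 28.0 CPM in the EpoR-null samples. It was higher in replicate 2 than in replicate 1, the reverse of most unequal members. Summed class 3 reads were 69.9, 62.1 and 66.1 CPM in the controls against 61.2 and 71.7 CPM in the EpoR-null samples, with overlapping groups.

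None of the 13 membrane-bound or anchored semaphorins of classes 4 to 7 was called. Their median log2 fold change was -0.02, with a range of -0.35 to 0.52. Sema5b, the one with the most reads, was at 95.5, 108 and 110.0 CPM in the controls and 92.9 and 86.4 CPM in the EpoR-null samples, below every control in both EpoR-null samples but by little (log2 fold change -0.22 with a standard error of 0.14, FDR 0.400). In 6 of the 13, among them Sema6a, Sema6d and Sema7a, EpoR-null replicate 1 was over 2-fold above replicate 2.

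Ephrins and Eph receptors, the largest contact-dependent system, gave no call among 8 ligands and 13 tested receptors. Efnb3, the ephrin with the most reads and a midline barrier for corticospinal axons, was at 124, 127 and 136 CPM in the controls and 99.3 and 127 CPM in the EpoR-null samples (log2 fold change -0.19 with a standard error of 0.16). Efna5 had the narrowest interval of the ephrins. It was at 56.8, 59.3 and 60.4 CPM in the controls and 52.2 and 57.0 CPM in the EpoR-null samples, and the 95% interval from the standard error reached from -0.39 to 0.18 on the log2 scale. Efnb2 and its receptor Ephb4, known from the split of arteries and veins, had 89.7, 89.4 and 88.0 CPM in the controls and 95.7 and 69.3 CPM in the EpoR-null samples for the ligand. The receptor Ephb4 was at 71.3, 88.0 and 58.4 CPM in the controls and 71.6 and 79.9 CPM in the EpoR-null samples, within the range of the controls. Their intervals were -0.46 to 0.24 and -0.36 to 0.48. Efna4 was at 19.0, 19.0 and 18.4 CPM in the controls and 21.4 and 28.2 CPM in the EpoR-null samples, above every control in both EpoR-null samples without passing (log2 fold change 0.40 with a standard error of 0.23, FDR 0.315).

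Of the Eph receptors, Ephb2 had the most reads, at 104, 96.6 and 109.7 CPM in the controls and 106 and 73.7 CPM in the EpoR-null samples, and Epha4, which steers axons of spinal circuits, was at 55.7, 44.9 and 65.3 CPM in the controls and 59.0 and 25.4 CPM in the EpoR-null samples. In both genes EpoR-null replicate 1 lay among the controls and replicate 2 below them (log2 fold changes -0.20 with a standard error of 0.20 and -0.39 with a standard error of 0.39). Epha5, a receptor of topographic maps, had the lowest log2 fold change of the A class (-0.89 with a standard error of 0.54, FDR 0.401), at 3.02, 1.57 and 2.55 CPM in the controls and 1.77 and 0.810 CPM in the EpoR-null samples. Epha3 was at 3.39, 2.02 and 3.63 CPM in the controls and 9.65 and 0.423 CPM in the EpoR-null samples, one EpoR-null sample far above and the other far below. Efna1, an ephrin of endothelium, had the largest log2 fold change in the ephrins (0.94 with a standard error of 0.86, FDR 0.580) and was at 3.80, 5.53 and 0.562 CPM in the controls and 7.63 and 5.07 CPM in the EpoR-null samples, the low value being that of the library labelled heterozygote. Summed Eph receptor A reads were 116, 99.4 and 114 CPM in the controls against 118 and 71.6 CPM in the EpoR-null samples, and those of Eph receptors B 218, 229.9 and 212 CPM in the controls against 220.3 and 196 CPM in the EpoR-null samples.

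In the netrin system no member was called. Ntn1, the attractant of the floor plate and ventral neural tube, was at 197, 202 and 229 CPM in the controls and 166 and 161 CPM in the EpoR-null samples. The EpoR-null values were close to each other and below the controls, at 78.1% of the control level (log2 fold change -0.36 with a standard error of 0.14, p = 0.0149, exact test of edgeR, FDR 0.124). With the length and GC offsets its log2 fold change was -0.18 (FDR 0.999). The 4 floor plate markers (Shh, Foxa2, Spon1 and Ferd3l) summed to 163, 160.4 and 169 CPM in the controls and 143 and 143 CPM in the EpoR-null samples. Their members differed, with Foxa2 at 18.8, 19.9 and 22.2 CPM in the controls and 13.8 and 26.3 CPM in the EpoR-null samples. Only Ferd3l had both EpoR-null samples below all controls. The part of floor plate content in the Ntn1 values was not tested. Dcc, the netrin receptor of commissural axons, was at 36.5, 28.3 and 43.8 CPM in the controls and 42.9 and 13.3 CPM in the EpoR-null samples, replicate 1 among the controls and replicate 2 below them (log2 fold change -0.37 with a standard error of 0.51, FDR 0.756). Unc5a, of the repellent netrin receptors the one with the most reads, was at 46.2, 55.1 and 56.5 CPM in the controls and 59.6 and 40.9 CPM in the EpoR-null samples (log2 fold change -0.07 with a standard error of 0.23). Unc5c was at 18.7, 11.98 and 15.4 CPM in the controls and 17.7 and 5.88 CPM in the EpoR-null samples, unequal between the EpoR-null samples like Dcc. Ntn3 was at 3.68, 3.14 and 2.72 CPM in the controls and 6.21 and 3.70 CPM in the EpoR-null samples and, at this low level, did not pass (FDR 0.394).

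Many members differed between the EpoR-null samples, while the wild type samples differed about as rarely as in all genes. In 20 of 66 members (30.3%) EpoR-null replicate 1 was over 2-fold above replicate 2, which held for 8.56% of all genes tested, and in 4 (6.06%, all genes 2.35%) it was the reverse. The wild type samples differed over 2-fold in 1 member, Robo3 (1.52%, all genes 1.19%). The fold of 2 was set after the values were seen, and so were the members named for it. The 20 ranged from Sema4g, just over 2, to Sema3d (26.3) and Robo3 (71.6) and included the receptors Dcc, Epha4, Nrp1, Robo1 and Unc5c. The 4 in the other direction were Epha1, Epha8, Sema3a and Sema3e. The newborn neuron markers given above differed between these samples in the same direction as the 20. Replicate 1 was over 2-fold above replicate 2 in 10 of 12 of them and in 4 of 6 tested paraxial mesoderm markers. This held for 2 of 8 endothelial, 2 of 6 red cell and 2 of 6 neural crest markers. It held for 2 of 9 progenitor and 0 of 4 floor plate markers. The reverse held in 2 of 2 tested surface ectoderm markers and 1 neural crest marker. Among the 21 tested co-receptors and related guidance proteins, replicate 1 was over 2-fold above replicate 2 in 7 and the reverse held in 0. Among 46 intracellular effectors, replicate 1 was over 2-fold above replicate 2 in 4 and the reverse held in 1 (all genes 8.56% and 2.35%). By any amount, 13 of the 21 and 35 of the 46 were higher in replicate 1, counts given without a share over all genes. The part of neuron content, or of other cell types, in these values was not tested. Without EpoR-null replicate 1 the exact test called 16 members lower and 0 higher, and it called 10.2% of all genes lower and 8.06% higher. Without replicate 2 it called 6 members lower and 2 higher (Epha3 and Robo3), and 5.1% of all genes lower and 2.66% higher. Both fits have a single EpoR-null sample and take the spread from the controls alone, and calls rose in them across all genes as well. The median log2 fold change of the members was -0.36 without replicate 1 and 0.12 without replicate 2.

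**Figure D3:**
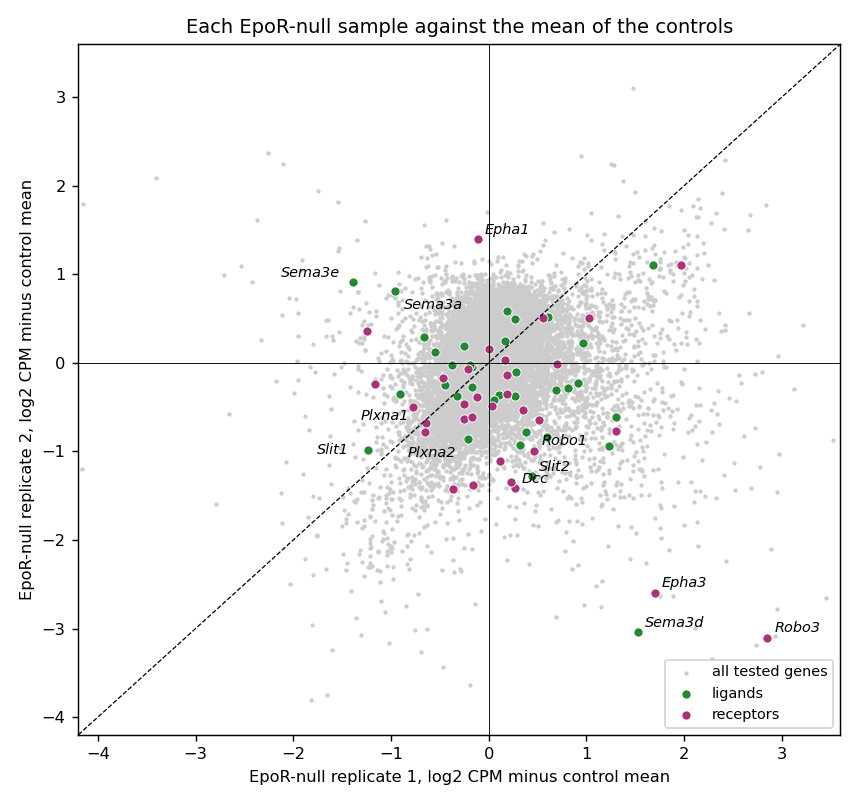
Log2 CPM of EpoR-null replicate 1 (horizontal) and replicate 2 (vertical), each minus the mean of the 3 controls, with all genes tested in grey (6 lie outside the axes), ligands in green and receptors in purple. On the dashed line both samples differ equally from the controls, where Slit1, Plxna1 and Plxna2 lie close by, while Robo3, Sema3d and Epha3 lie far below it.

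Other members were low in the library labelled heterozygote, as the vessel markers were. In 6 members (9.09%, all genes 3.35%) the library labelled heterozygote was over 2-fold below both wild type samples. These were Plxnd1, Robo4, Unc5b, Efna1, Epha2 and Sema3g, and 0 members were over 2-fold above (all genes 0.0551%). Unc5b was at 13.3, 15.2 and 5.36 CPM in the controls and 16.7 and 10.2 CPM in the EpoR-null samples. Of the vessel genes named at the start, Efnb2 and Ephb4 were not among the 6. In the library labelled heterozygote Efnb2 was at 88.0 CPM (89.7 and 89.4 CPM in wild type) and Ephb4 at 58.4 CPM (71.3 and 88.0 CPM in wild type). All 8 endothelial markers were lowest in the same library, and the part of vessel content in these values was not tested. Without that library the log2 fold change of Plxnd1 was -0.45 and that of Robo4 0.36, neither of which passed (FDR 0.681 and 0.823). Slit1, Plxna1 and Plxna2 passed both thresholds without it.

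**Figure D4:**
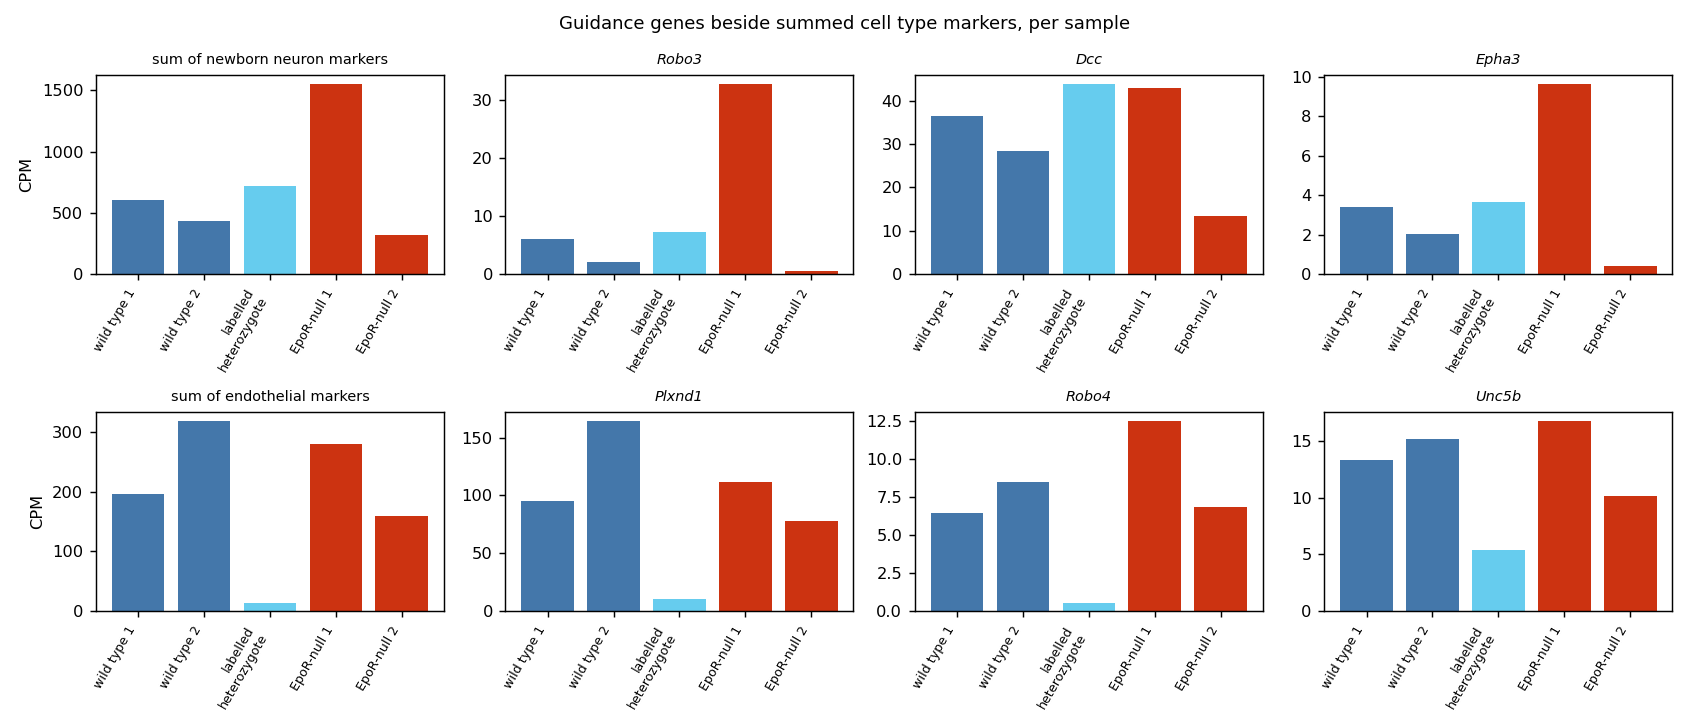
CPM per sample (bars, from 0) of the summed newborn neuron markers with Robo3, Dcc and Epha3 (top) and of the summed endothelial markers with Plxnd1, Robo4 and Unc5b (bottom). Top, EpoR-null replicate 2 is the lowest bar in each panel. Bottom, the lowest bar is the library labelled heterozygote.

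Transcript length moved with the comparison across the whole table, and the members had a longer median transcript than all genes tested. The longest annotated transcript had a median of 5019 bases in the members and 3492 in all genes tested. Of the genes with a transcript of at least 5000 bases (a limit set after the values were seen), 13.7% were called lower and 0.0327% higher, and of shorter ones 0.641% and 1.22%. All 3 called members were among the 34 members of at least 5000 bases (8.82%), and 0 of 32 shorter members were called. In the long class 13 of 34 members (38.2%) had both EpoR-null samples below all controls, against 52.9% of all long genes, and 25 (73.5%) lay below 0, against 81.1%. The median log2 fold change of the class was -0.29 for members and -0.32 for all genes, and in the short class 0.05 and 0.14. The median deviation of long genes from the control mean was -0.23 in EpoR-null replicate 1 and -0.49 in replicate 2, on the log2 scale. What part of the lower counts of Plxna1 and Plxna2 goes with length was not tested beyond the offsets given above.

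**Figure D5:**
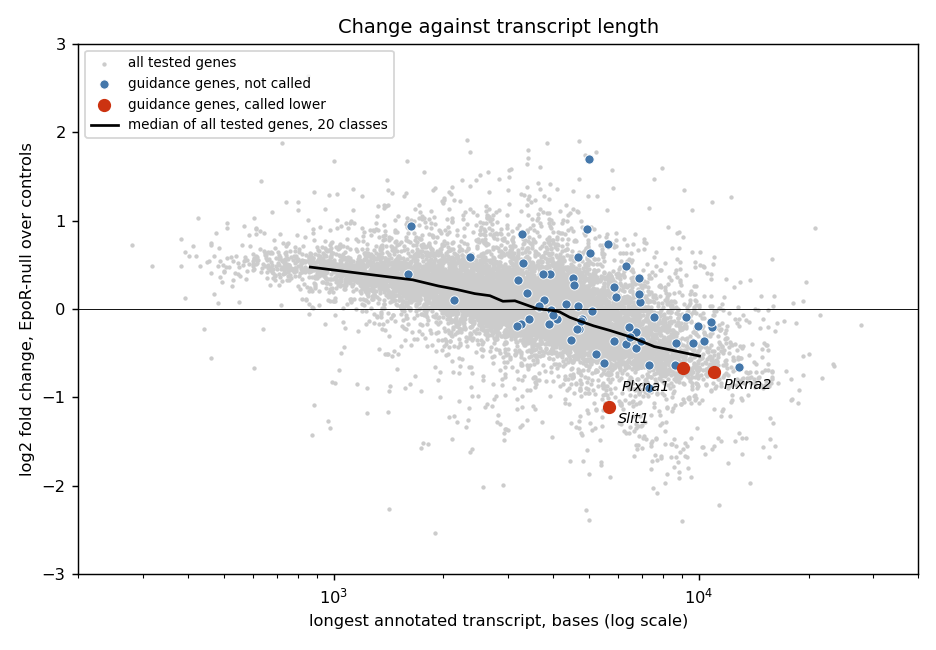
Log2 fold change of EpoR-null over controls (vertical) against the longest annotated transcript in bases (horizontal, log scale), with all genes tested in grey, their median in 20 length classes as a line, and members in blue or, if called lower, in red. The line falls from above to below 0 with length, Plxna1 and Plxna2 lie near its long end, and Slit1 lies further below it.

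Levels between genes were compared per kilobase of the longest transcript, as the mean of the controls. Efnb3 (40.6 CPM per kb), Plxnb2 (36.2) and Ntn1 (35.7) were the highest, followed by Plxnb1, Plxna1 and Sema5b (23.7, 23.4 and 22.5 CPM per kb), and Unc5d was the lowest of those tested (0.101). Slit1 stood at 18.9 CPM per kb. The order rests on which transcript is used, since only 4 of the first 10 stayed among the first 10 with the median transcript length of each gene.

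Other genes of the pathway came from lists chosen with earlier results of these data known. Of 23 co-receptors and related guidance proteins, such as Neo1, Nrcam and Rgma, 21 were tested and none was called (median log2 fold change -0.05). Of 46 intracellular effectors, all tested, 5 fell and 1 rose, where 3.84% and 0.929% of all genes did (median -0.19). The 5 that fell all had transcripts of at least 5000 bases, a class in which 13.7% of all genes tested were called lower. The share of effectors of that length that fell is not given, so the 5 cannot be set against this percentage. Those that fell were Mical3 (log2 fold change -1.67, FDR 0.00253), a flavoprotein monooxygenase that takes apart actin downstream of plexins, Trio (log2 fold change -0.84, FDR 0.0133), an exchange factor for Rac that acts downstream of Dcc, Abl2 (log2 fold change -0.74, FDR 4.16e-04), a tyrosine kinase, Rock2 (log2 fold change -0.66, FDR 7.45e-04), a kinase downstream of RhoA, and Srgap2 (log2 fold change -0.48, FDR 0.0147), a GTPase-activating protein that binds Robo.

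Dpysl2, which encodes the semaphorin mediator CRMP2, rose. It was at 102, 106 and 101 CPM in the controls and 189.8 and 191 CPM in the EpoR-null samples, the EpoR-null samples nearly equal and far above the controls (log2 fold change 0.88 with a standard error of 0.13, FDR 2.29e-09). Mical3 was at 13.4, 13.7 and 14.2 CPM in the controls and 5.91 and 2.82 CPM in the EpoR-null samples, low in both EpoR-null samples. With the length and GC offsets Dpysl2 (0.995, FDR 9.98e-08) and Mical3 (-1.28, FDR 0.0103) stayed past FDR < 0.05, and Trio, Abl2, Rock2 and Srgap2 did not (FDR from 0.588 to 0.999). The count of effectors that fell depended on single samples. It was 0 without wild type replicate 1 (all genes 0.881% lower), 2 without wild type replicate 2 (2.23%), 2 without the library labelled heterozygote (1.89%) and 16 without EpoR-null replicate 1 (10.2%), so the share of all genes called lower moved in the same order.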

How the data were processed

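Poly(A) RNA of neural tubes was sequenced, and the deposited values are whole read counts per gene and sample that the authors made with Trimmomatic 0.32, TopHat2 2.1.0 and HTSeq 0.6.1 on mm9, per the labels (the methods of the study name another genome; strandedness is not given in the sources used here). HTSeq leaves out reads outside genes (8.11 to 11.03%) and reads on more than 1 gene (1.84 to 2.31%). Genes with over 1 CPM in at least 2 of 5 samples were kept (12703 of 23284). The 2 EpoR-null samples and 3 controls entered a comparison in R 4.3.3 with edgeR 4.0.16 (TMM, tagwise dispersions, exact test, Benjamini-Hochberg over all genes tested), called at p < 0.001 and FDR < 0.05. Nothing says that samples came from separate litters, so p-values cover the spread between these samples. Standard errors came from the negative binomial information. Alternatives used the quasi-likelihood test, DESeq2 1.42.0, other scalings and filters, each sample left out, and offsets on transcript length and GC content (GENCODE M21, loess span 0.5, 12577 genes). Coordinates are those of GRCm38 and not of the counting. Fits were tested on simulated data. Named were the members past a threshold, the most abundant of each family, textbook partners, the 3 largest uncalled changes, and called genes of the other lists. Others were named after their values were seen (Plxnd1, Epha3, Sema3d, Efna4, Unc5b and the like). Members and lists were chosen with earlier results of these data known.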

Additional observations from a re-analysis of the deposited data

How the results depend on the processing

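Slit1, Plxna1 and Plxna2 stayed past both thresholds of the exact test with RLE or library size scaling, with either other filter and without each sample, and in DESeq2 (without 1 EpoR-null sample the lone one is assumed to vary like the controls). The members called lower were 3, and 3 to 16 with 1 sample left out. They were 0 by the quasi-likelihood test, 1 with length and GC offsets (Slit1) and 0 with offsets and the replicate block together. Members called higher were 0, and 0 to 2 with 1 sample left out. Of all genes, 488 were lower and 118 higher. With 1 sample left out these were 111 to 1283 lower and 4 to 1013 higher, by the quasi-likelihood test 0 and 0, by DESeq2 753 and 275, with offsets 142 and 30, and with offsets and the block 0 and 0. Without a filter 64 were higher. Co-receptors called lower were 0 to 4 and higher 0 to 3 with 1 sample left out. Effectors called lower were 5, and 0 to 16 with 1 sample left out, 0 by the quasi-likelihood test, 3 with library size scaling, 1 with offsets and 0 with offsets and the block. Effectors called higher were 1, and 1 to 4 with 1 sample left out, 2 in DESeq2, 0 by the quasi-likelihood test and 0 with offsets and the block. The cause of these shifts was not tested. The median log2 fold change of members, -0.10, was 0.04 with offsets. Other scalings moved the median of all genes by less than 0.1.

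The labels give wild type and EpoR-null samples the numbers 1 and 2 without saying what they share. The difference between numbers 1 and 2 had r = 0.427 across 12703 genes between the 2 genotypes, a value over genes that are not independent. The replicate block placed the library labelled heterozygote under number 1. The quasi-likelihood test with this block called 2 members lower (Plxna1 and Slit1) and 0 higher, and 266 of all genes lower and 25 higher. It called 2 effectors lower and 1 higher. At 2 against 3 samples an exact permutation test of a single value cannot reach p under 0.05. Counts of 3 reads or fewer, as in Epha6, cannot show a difference.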
